A study of Saccharum hybrid cultivar with 68 samples.

Results

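A group of 17 assembled transcripts (unigenes) of sugarcane was chosen for a far higher level in leaf at the early stage of sucrose accumulation than at the later stages, in both genotypes of the study. They were chosen from 100182 unigenes by their leaf levels in CPM (the read count of a unigene per 1000000 counts of its library). In each genotype the mean early leaf level had to be at least 5 CPM, and at least 8 times the middle leaf mean and 8 times the late leaf mean. A mean early level of at least 5 CPM in both genotypes was met by 14852 unigenes, of which the 17 make up 0.114%. The change over the leaf stages is therefore a property of the choice, and it is described below without a test.

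Leaf and stem were sampled from 2 genotypes of the Saccharum hybrid cultivar, at an early, a middle and a late stage of sucrose accumulation, and the series description says that the genotypes differ in sucrose content. The first is ROC22, whose library titles begin with H. The other, whose library titles begin with L, is called the second genotype here. Its name is given in the legend of the plot of summed levels. Messenger RNA was sequenced in 36 libraries, 3 for each of the 12 combinations of genotype, tissue and stage. The 6 leaf groups are early, middle and late leaf of ROC22 and of the second genotype, and the 6 stem groups are the same stages of the same genotypes. The labels name no treatment and give no plant age, and they do not state which genotype stores more sucrose. Nothing in them tells whether replicate libraries stem from different plants, and a p-value below therefore reflects variation among libraries that may be technical.

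Sugarcane is a C4 grass whose mature leaves fix carbon and export sucrose, while the stem stores it. Young leaf tissue is a sink that still builds cell walls, plastids and veins, and a leaf becomes a source as it expands. Modern sugarcane cultivars are polyploid hybrids, so an assembly of their transcripts often holds several near-identical copies of a gene. Reads that fit more than one copy can be divided between unigenes in ways that the count table does not show, and no label or header states whether the counting used strand. The files pair no unigene with a gene name or a sequence, so the 17 are given by identifier, no role can be stated for them, and the labelled tissues could not be checked against marker genes.

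Library totals ran from 17970015 to 24414986 counts in leaf and from 19241718 to 24929466 in stem. A floor of 3 counts in a library was worth 0.123 to 0.167 CPM in leaf and 0.120 to 0.156 CPM in stem. The mean correlation of a library with the others of its group was 0.910 to 0.989 in leaf and 0.914 to 0.988 in stem, over unigenes on a log scale, and middle leaf library 1 and middle stem library 1 of the second genotype were the lowest. Counts of every pair of libraries in a group differed by more than sampling noise, with a chi-square per degree of freedom of 8.75 to 102, so none was taken as a duplicate.

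In early leaf the mean levels of the 17 unigenes ran from 5.01 to 231 CPM in ROC22, with a median of 11.5 CPM, and from 6.01 to 208 CPM in the second genotype, with a median of 10.7 CPM. In middle leaf the medians were 0.337 CPM in ROC22 and 0.715 CPM in the second genotype, and in late leaf 0.187 and 0.159 CPM. The early mean was a median of 28.2 times the higher of the later means in ROC22, with a range of 8.45 to 156, and a median of 12.5 times in the second genotype, with a range of 8.40 to 116. Over all 14852 unigenes with the same minimum early level, the corresponding medians were 0.869 in ROC22 and 0.965 in the second genotype. The mean was lower in late than in middle leaf for 12 of 17 in ROC22, 15 in the second genotype and 11 in both. The corresponding share of all unigenes was not computed. The late medians lie close to the leaf floor of 0.123 to 0.167 CPM, and some of these comparisons rest on a few counts. No further decline from middle to late leaf is therefore read from them. These are bulk tissue samples, in which fewer cells of a type and less RNA per cell cannot be told apart.

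**Figure D1:**
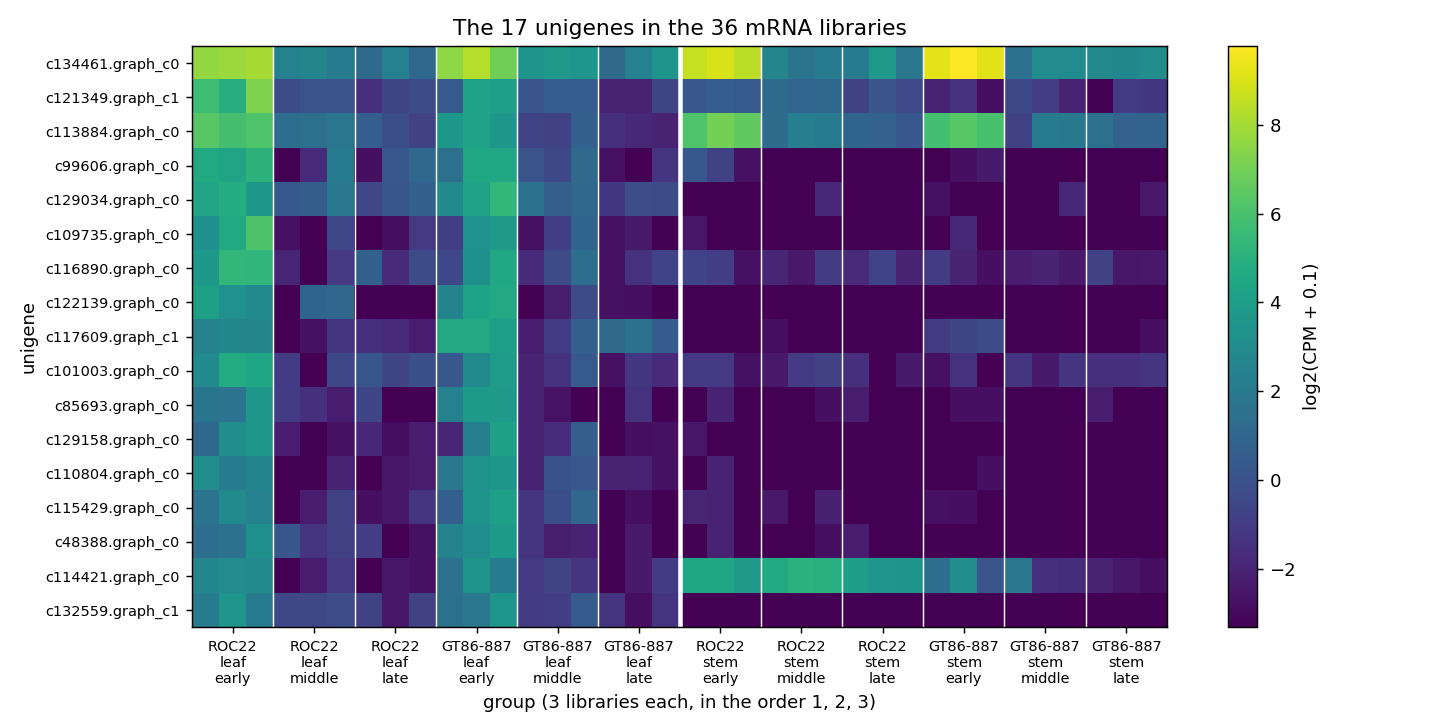
Each row is 1 of the 17 unigenes and each column 1 of the 36 mRNA libraries, leaf on the left and stem on the right, with colour giving the level as log2(CPM + 0.1). The early leaf columns are bright for all rows by choice, while in stem most rows stay dark at every stage and c134461.graph_c0 and c113884.graph_c0 are bright in early stem.

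Summed over the 17 unigenes, ROC22 leaf held 465 to 736 CPM in its early libraries, 12.6 to 22.7 CPM in the middle and 9.03 to 10.1 CPM in the late ones. Leaf of the second genotype held 265 to 523 CPM early, 18.4 to 33.0 CPM in the middle and 5.79 to 15.5 CPM late. The summed level in early stem was of similar size, at 447 to 665 CPM in ROC22 and 644 to 971 CPM in the second genotype, and most of it came from c134461.graph_c0. In later stem the sum was 36.4 to 43.5 CPM (middle) and 16.4 to 27.9 CPM (late) in ROC22, against 7.76 to 13.0 CPM and 9.19 to 11.4 CPM in the second genotype. Of the ROC22 sums, c114421.graph_c0 alone held 25.2 to 32.9 CPM (middle) and 10.9 to 16.4 CPM (late). In the second genotype it held at most 3.60 CPM and 0.151 CPM.

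**Figure D2:**
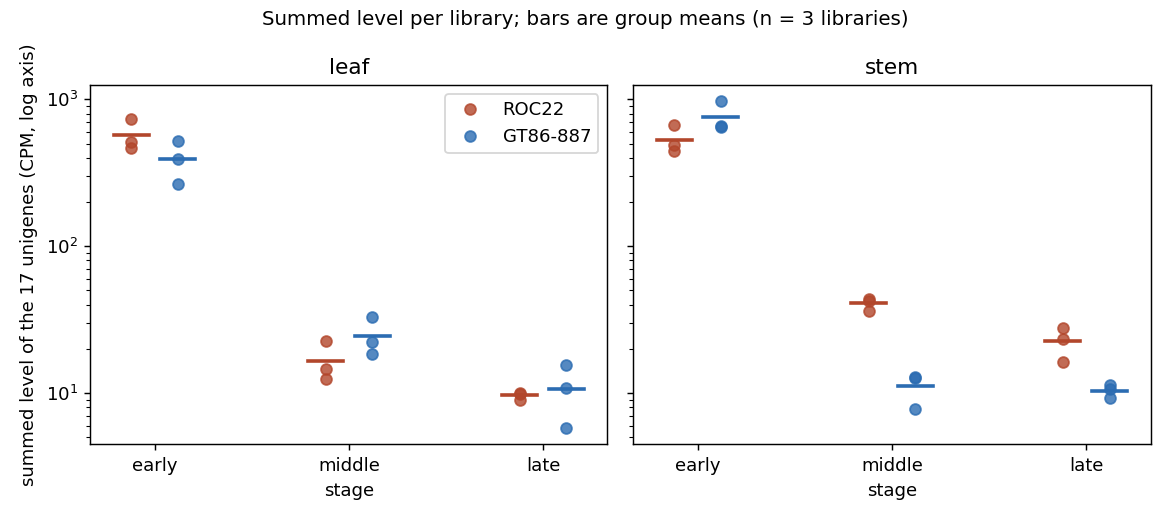
Summed CPM of the 17 unigenes in each library on a log axis, by stage, for leaf (left panel) and stem (right panel), with the bar at the mean of the 3 libraries. Early libraries lie between 265 and 971 CPM in both tissues, and all later libraries at or below 43.5 CPM.

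The choice turned on small margins for some unigenes. By fold, c132559.graph_c1 at 8.40 and c48388.graph_c0 at 8.45 were the closest inside the limit, and the closest outside had 7.80 and 7.85. By early level, the closest inside were at 5.01 and 5.20 CPM, and the closest outside at 4.68 and 4.86 CPM. The limits taken in 1 genotype alone were met by 211 of 16310 unigenes in ROC22 (1.29%) and by 60 of 16878 in the second genotype (0.355%), of which the 17 are 8.06% and 28.3%. In 2 of the 17, c134461.graph_c0 and c113884.graph_c0, the limits held with every library of the early group set against every later library, and 5 were chosen again whichever leaf library was left out, namely those 2 with c99606.graph_c0, c117609.graph_c1 and c110804.graph_c0.

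The most abundant of the group in reads was c134461.graph_c0. In ROC22 leaf its early libraries held 201, 224 and 267 CPM, its middle libraries 5.36, 6.21 and 4.22 CPM and its late libraries 2.18, 5.24 and 2.01 CPM. In leaf of the second genotype they held 188, 314 and 123 CPM early, 10.7, 13.3 and 11.8 CPM in the middle and 2.22, 5.35 and 11 CPM late. The early groups are apart from the later ones in both genotypes, while late library 3 of the second genotype reaches the middle libraries. The early means were 231 ± 33.2 CPM in ROC22 and 208 ± 97.0 CPM in the second genotype (SD, n = 3 each).

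The next in mean early leaf level was c121349.graph_c1, with a far wider spread. Its ROC22 early leaf libraries held 52.5, 28.8 and 151 CPM, and its early leaf libraries of the second genotype 1.22, 18.5 and 16.8 CPM. Early library 1 of the second genotype lies inside the range of that genotype's middle libraries, at 0.992, 1.39 and 1.40 CPM, so for this unigene the early group overlaps the middle group there. In ROC22 the middle libraries, at 0.715, 0.960 and 0.905 CPM, are all far below the early ones. Late leaf held 0.257, 0.573 and 0.704 CPM in ROC22 and 0.145, 0.142 and 0.574 CPM in the second genotype.

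Of the remaining unigenes, several are named here after their values were seen. The most even between replicates in ROC22 was c117609.graph_c1, at 5.62, 6.24 and 6.07 CPM in early leaf, 0, 0.0505 and 0.302 CPM in middle leaf and 0.257, 0.205 and 0.101 CPM in late leaf. In the second genotype it held 23.7, 23.6 and 16.5 CPM early, 0.0992, 0.388 and 1.5 CPM in the middle and 2.17, 2.89 and 1.29 CPM late, so that its late mean was above its middle mean. The largest early-to-later ratio in ROC22, 156, belonged to c109735.graph_c0, with early leaf libraries at 9.42, 24.3 and 68.3 CPM. Its early libraries of the second genotype held 0.445, 9.61 and 13.2 CPM, of which the first lies inside the range of the middle libraries.

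CPM favours long transcripts, so levels between unigenes were compared in FPKM, fragments per kilobase of transcript per 1000000 fragments, as the authors deposited it. Per length, c99606.graph_c0 had the highest mean early leaf level, 174 ± 46.4 FPKM in ROC22 and 115 ± 80.3 FPKM in the second genotype (SD, n = 3 each). Next came c134461.graph_c0 at 110 ± 16.1 and 95.5 ± 43.8 FPKM, c101003.graph_c0 at 113 ± 58.3 and 49.5 ± 43.1 FPKM, and c113884.graph_c0 at 120 ± 19.6 and 24.6 ± 5.47 FPKM. The order of these 4 in ROC22 is within their spread. The lowest mean over both genotypes belonged to c122139.graph_c0, at 3.02 ± 1.95 and 3.97 ± 2.70 FPKM. The length that the ratio of CPM to FPKM implies ran from 136 bases for c99606.graph_c0 to 4513 bases for c122139.graph_c0, with a median of 591 bases, and it is approximate since the deposited FPKM also depends on how the authors corrected lengths.

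The early leaf values of the 17 unigenes varied widely between libraries. These values are the ones the 17 were chosen by, and the wider sets beside them were not matched on level, so the shares and medians are given side by side without a test. The coefficient of variation over the 3 early leaf libraries had a median of 44.9% in ROC22, against 10.6% over all 16310 unigenes with an early mean of at least 5 CPM there, and of 71.4% in the second genotype, against 11.5% over 16878. Early leaf library 1 of the second genotype was the lowest of its group for 14 of the 17, a position it held for 31.8% of all unigenes at that level, and the exceptions were c134461.graph_c0, c113884.graph_c0 and c117609.graph_c1. Across the 17, the other libraries of that group were a median of 3.83 times this one and up to 68.2 times. In middle leaf, library 3 was the highest for 12 of the 17 in ROC22 and in the second genotype, against 33.0% and 22.4% of all unigenes.

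The number of unigenes chosen followed these libraries. Without early leaf library 1 of the second genotype, 28 unigenes met the limits, without early leaf library 3 of that genotype 9, and without its middle leaf library 3 68. The count lay between 13 and 18 when any other leaf library was left out. The cause of these differences between libraries was not tested.

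**Figure D3:**
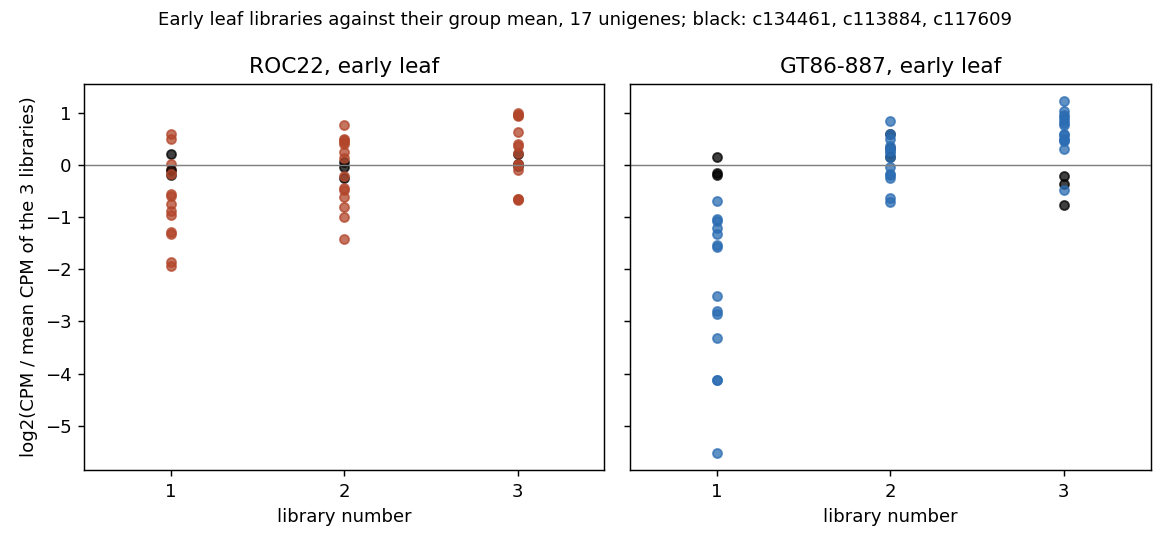
For each of the 17 unigenes, the log2 ratio of each early leaf library to the mean of its 3 libraries, ROC22 on the left and the second genotype on the right, against library number, with c134461.graph_c0, c113884.graph_c0 and c117609.graph_c1 in black. In the second genotype, library 1 is the lowest for 14 unigenes, the black points being the 3 that differ.

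Stem was not used to choose the 17, and it divided them. In 12 of 17 (70.6%) the level was under 1 CPM in each of the 18 stem libraries, and the highest value of these 12 in any of them was 0.735 CPM. Of all 14852 unigenes with the same minimum early leaf level, 439 (2.96%) stayed under that line in stem. That wider set was not matched to the 17 on leaf level, so the shares are set side by side without a test. The stem counts of the 12 over all 18 libraries ran from 0 to 90. Among the 12, c48388.graph_c0 and c85693.graph_c0 had equal counts in 9 of 9 ROC22 stem libraries, 6 counts each in all, and in 6 of 9 libraries of the second genotype. Most of these equal values were 0, since c48388.graph_c0 had a count in only 3 of the 18 stem libraries. In stem of the second genotype it had 0 counts and c85693.graph_c0 had 4. In early leaf their summed counts differed, at 342 and 420 in ROC22 and 521 and 623 in the second genotype. Whether these 2 are separate transcripts, which bears on the counts of 17 and 12, was not tested.

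No count at all was recorded in stem for 2 of the 12, c122139.graph_c0 and c132559.graph_c1, against 7 of the 14852 (0.0471%). A total of 0 over the 18 libraries allows up to 0.00759 CPM, taking 3 counts of the pooled total and covering counting error only. In early leaf these 2 held 7.37 to 17.3 CPM and 4.25 to 11.5 CPM in ROC22, and 5.68 to 24.3 CPM and 2.62 to 11.7 CPM in the second genotype.

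The 5 unigenes that reached 1 CPM in some stem library behaved in unlike ways. They were c134461.graph_c0, c113884.graph_c0, c114421.graph_c0, c121349.graph_c1 and c99606.graph_c0. The last reached 1.12 CPM in ROC22 early stem library 1, its other early ROC22 libraries held 0.506 and 0.0520 CPM, and it had 0 counts in all 12 middle and late stem libraries.

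**Figure D4:**
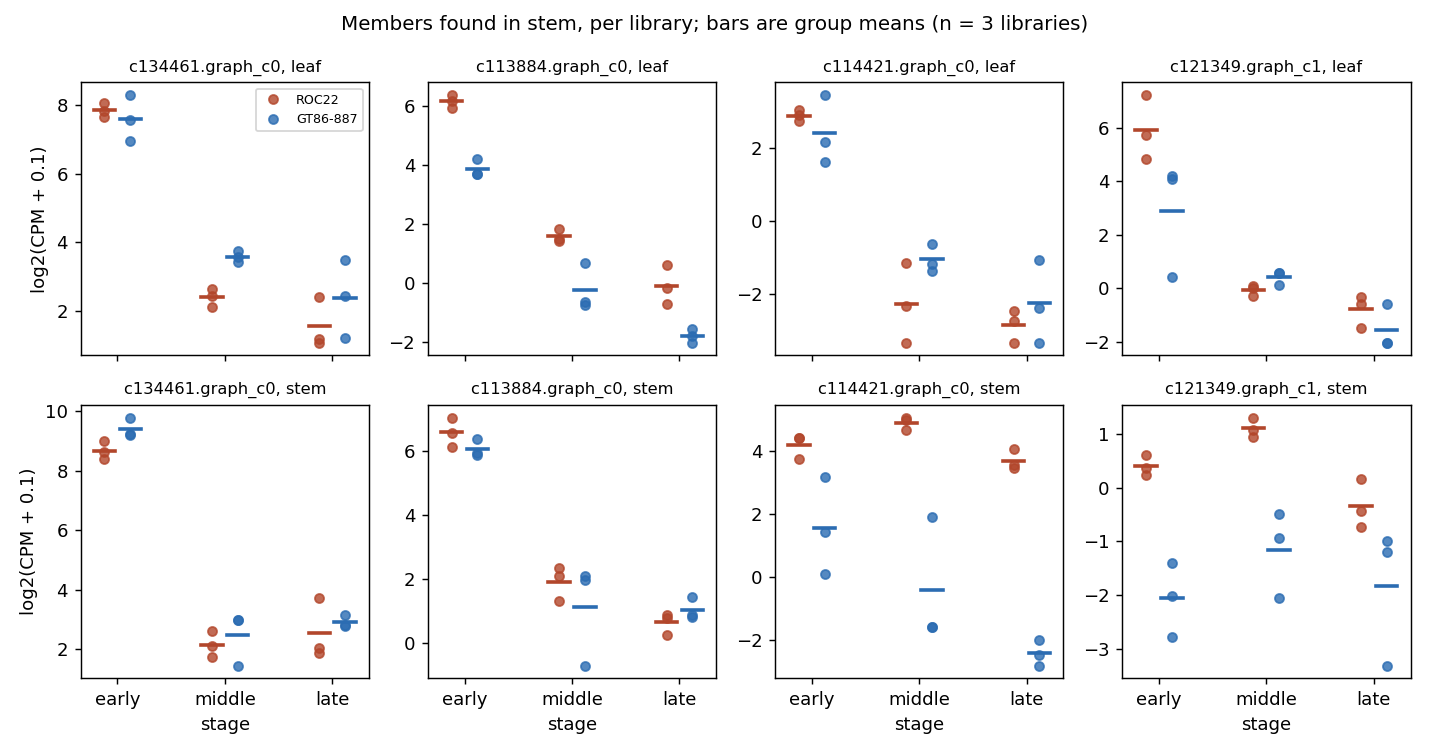
Levels as log2(CPM + 0.1) per library by stage for 4 unigenes (columns) in leaf (upper row) and stem (lower row), with bars at the mean of the 3 log values in each group. The stem panels of c134461.graph_c0 and c113884.graph_c0 drop after the early stage in both genotypes, c114421.graph_c0 stays at 10.9 to 32.9 CPM in ROC22 stem and is at or below 0.151 CPM in late stem of the second genotype, and c121349.graph_c1 stays at or below 2.37 CPM in all stem libraries.

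Applied to stem, the same limits were met by 35 unigenes, of which 2 also belong to the 17, c134461.graph_c0 and c113884.graph_c0. They are 11.8% of the 17 and 5.71% of the 35, and the 35 come from the 100182 unigenes of the series. The share among unigenes with the same minimum early stem level was not computed. Nothing is therefore read from the size of the overlap. In ROC22 stem, c134461.graph_c0 held 393, 507 and 337 CPM early, 6.08, 3.24 and 4.22 CPM in the middle and 4.09, 13.2 and 3.54 CPM late. In stem of the second genotype it held 598, 877 and 580 CPM early, 2.64, 7.93 and 7.92 CPM in the middle and 7.0, 6.73 and 8.75 CPM late. The early stem libraries of both genotypes thus lie above all later ones, and above all leaf libraries of this unigene.

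The pattern of c113884.graph_c0 was the same in kind. In ROC22 stem it held 70.6, 133 and 95.4 CPM early, 2.37, 5.02 and 4.18 CPM in the middle and 1.74, 1.63 and 1.09 CPM late. In stem of the second genotype it held 58.9, 84.2 and 62.1 CPM early, 0.507, 4.13 and 3.84 CPM in the middle and 2.62, 1.65 and 1.72 CPM late. No later library reached the early ones in either genotype.

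Stem stages were compared in a fit over all 36199 unigenes that passed the filter on low counts, which 5 of the 17 did (c134461.graph_c0, c113884.graph_c0, c114421.graph_c0, c121349.graph_c1 and c116890.graph_c0). Since the filter removes those near 0 in stem, the counts below speak for these 5 and not for the 17. From early to middle stem in ROC22, 2 of the 5 fell by edgeR's quasi-likelihood test with Benjamini-Hochberg adjustment, where 5.19% of all tested unigenes fell and 3.42% rose. By the same edgeR test, c134461.graph_c0 fell by 6.67 ± 0.55 (SE) on the log2 scale with adjusted p = 4.95e-06, and c113884.graph_c0 fell by 4.89 ± 0.49 with adjusted p = 2.19e-05. In linear terms the levels were 102 and 29.6 times lower.

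In the second genotype the same 2 of 5 fell from early to middle stem, against 8.14% of all tested unigenes that fell and 8.27% that rose. By edgeR, c134461.graph_c0 fell by 6.95 ± 0.56 with adjusted p = 2.51e-06, and c113884.graph_c0 fell by 4.75 ± 0.49 with adjusted p = 1.93e-05. For c114421.graph_c0 edgeR gave a log2 change of -1.73 ± 0.80 with adjusted p = 0.151, and without middle stem library 1 of the second genotype it gave -4.30 with adjusted p = 0.00257.

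From early to late stem, 2 of the 5 fell in ROC22 and 3 in the second genotype, where 9.28% and 8.66% of all tested unigenes fell and 8.91% and 7.17% rose. In ROC22, edgeR gave falls for c113884.graph_c0 of -6.20 ± 0.54 (adjusted p = 1.01e-05) and for c134461.graph_c0 of -5.98 ± 0.53 (adjusted p = 1.14e-05). In the second genotype, edgeR gave -6.65 ± 0.55 for c134461.graph_c0 (adjusted p = 3.59e-06), -5.23 ± 0.51 for c113884.graph_c0 (adjusted p = 1.26e-05) and -5.60 ± 1.14 for c114421.graph_c0 (adjusted p = 0.00361). No tested unigene of the 17 rose in any of these 4 stem comparisons by edgeR, where 0 also rose at an unadjusted p under 0.05 and 0 by DESeq2.

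For c114421.graph_c0 the levels in both tissues are set side by side. In leaf it held 6.45, 7.97 and 7.28 CPM early in ROC22 and 2.95, 10.7 and 4.32 CPM early in the second genotype, and all later leaf libraries were at or below 0.554 CPM. In ROC22 stem it held 20.8, 20.9 and 13.1 CPM early, 25.2, 32.9 and 31.0 CPM in the middle and 16.4, 11.5 and 10.9 CPM late. In stem of the second genotype it held 2.56, 8.88 and 0.964 CPM early, 3.60, 0.234 and 0.232 CPM in the middle and 0.151, 0.0806 and 0.0419 CPM late. ROC22 stem libraries thus exceeded those of the second genotype at every stage with no overlap.

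In ROC22 stem the change of c114421.graph_c0 did not pass in either comparison by edgeR, with log2 0.53 ± 0.70 and adjusted p = 0.728 from early to middle, and log2 -0.63 ± 0.71 and adjusted p = 0.596 from early to late. The difference between the genotypes in the stage change was tested as an interaction term, added after the values had been seen. From early to late it was 4.98 ± 1.38 on the log2 scale in edgeR with adjusted p = 0.159, so the difference of the changes did not pass. Over the alternatives run, that adjusted p ran from 0.000884 to 0.360. From early to middle the interaction was 2.26 ± 1.06 with adjusted p = 0.489 in edgeR. Interactions passed for 0.138% of all tested unigenes from early to late and for 0.00276% from early to middle.

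In early stem, 2 of the 5 tested unigenes were higher in ROC22 than in the second genotype and 0 lower by edgeR, where 18.3% of all tested unigenes were higher and 19.1% lower. For c121349.graph_c1 the early stem libraries held 1.08, 1.43 and 1.20 CPM in ROC22 and 0.147, 0.278 and 0.0459 CPM in the second genotype, with no overlap, and edgeR gave 3.04 ± 0.73 on the log2 scale with adjusted p = 0.00437. For c114421.graph_c0 edgeR gave 2.23 ± 0.75 with adjusted p = 0.0274. That call was lost without ROC22 early stem library 1 or 2 or early stem library 1 or 3 of the second genotype, with adjusted p = 0.0602, 0.0667, 0.103 and 0.0988 in that order. For c113884.graph_c0 and c134461.graph_c0 the early stem difference did not pass in edgeR, with 0.66 ± 0.41 (adjusted p = 0.228) and -0.63 ± 0.43 (adjusted p = 0.262).

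The reverse direction was seen for c117609.graph_c1, which the filter on low counts kept out of the stem fit. It had 36 counts over the early stem libraries of the second genotype, at 0.394, 0.555 and 0.735 CPM, and 0 counts over those of ROC22. Taking 3 counts over the ROC22 group as the floor, 0.0455 CPM, ROC22 was at least 12.4-fold lower. The difference passed in DESeq2 (adjusted p = 0.0492). Without the filter edgeR gave adjusted p = 0.00634, which is not taken as support. For c114421.graph_c0 in the same edgeR comparison, dropping the filter moved the adjusted p from 0.0274 to 0.000311. Under the filter, c117609.graph_c1 entered the stem fit only in some fits with 1 library left out, where the filter was rerun. It passed in each of those. Without early stem library 2 or 3 of the second genotype the filter again kept it out, so it was not tested. These passes depend on the filter and are not taken as a check on the difference.

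In early leaf all 17 unigenes were tested between the genotypes, in a fit over 37678 unigenes. The early level in each genotype had entered the choice, which leaves out a unigene under 5 CPM in either, so the number that differ is limited by the choice and nothing is read from its share. By edgeR 2 of the 17 were higher in ROC22 and 1 lower, where 16.8% of all tested unigenes were higher and 17% lower, and 14 did not pass. The count of 3 of 17 stands beside 33.8% of all tested unigenes that differed in either direction. The median log2 difference was 0.26 over the 17 and 0.02 over all tested unigenes.

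The difference with the smallest adjusted p was that of c113884.graph_c0. Its early leaf libraries held 83.2, 60.7 and 71.2 CPM in ROC22, mean 71.7 ± 11.2 (SD, n = 3), and 12.7, 18.3 and 12.7 CPM in the second genotype, mean 14.6 ± 3.25 (SD, n = 3), with no overlap. By edgeR the difference was 2.41 ± 0.31 on the log2 scale, 5.30-fold, with adjusted p = 4.23e-05, and it passed whichever leaf library was left out. Later leaf libraries of c113884.graph_c0 were at 2.60, 2.73 and 3.47 CPM (middle) and 1.41, 0.778 and 0.502 CPM (late) in ROC22, and at 0.545, 0.499 and 1.5 CPM and 0.241, 0.189 and 0.143 CPM in the second genotype. The ROC22 libraries were above those of the second genotype at each of the 3 leaf stages.

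The largest difference in size was that of c121349.graph_c1, higher in ROC22 early leaf by 2.79 ± 0.69 in edgeR, 6.92-fold, with adjusted p = 0.00536. Without ROC22 early leaf library 3, the one at 151 CPM, edgeR gave 1.82 with adjusted p = 0.0540. The 1 unigene that was lower in ROC22 was c117609.graph_c1, at -1.72 ± 0.51 in edgeR, 3.30-fold, with adjusted p = 0.0157. Its ROC22 libraries, at 5.62 to 6.24 CPM, lie below its libraries of the second genotype, at 16.5 to 23.7 CPM, and without ROC22 early leaf library 1 edgeR gave -1.68 with adjusted p = 0.0528.

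The other 14 unigenes had log2 differences between -0.78 and 2.25, 8 above 0 and 6 below, with adjusted p between 0.0759 and 0.955 in edgeR. The smallest adjusted p of these was that of c109735.graph_c0, at 2.25 ± 0.94 with adjusted p = 0.0759 in edgeR, and it passed without the filter on low counts (adjusted p = 5.81e-15) and without middle leaf library 1 of the second genotype (adjusted p = 0.0361). Its early leaf libraries overlap between the genotypes. Without the filter, edgeR's adjusted p also fell from 0.00536 to 1.3e-31 for c121349.graph_c1 and from 0.492 to 0.00439 for c99606.graph_c0. The unfiltered value is therefore not taken as support. For c134461.graph_c0 and c114421.graph_c0 the differences were 0.25 ± 0.43 and 0.37 ± 0.55 in edgeR, and neither passed.

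**Figure D5:**
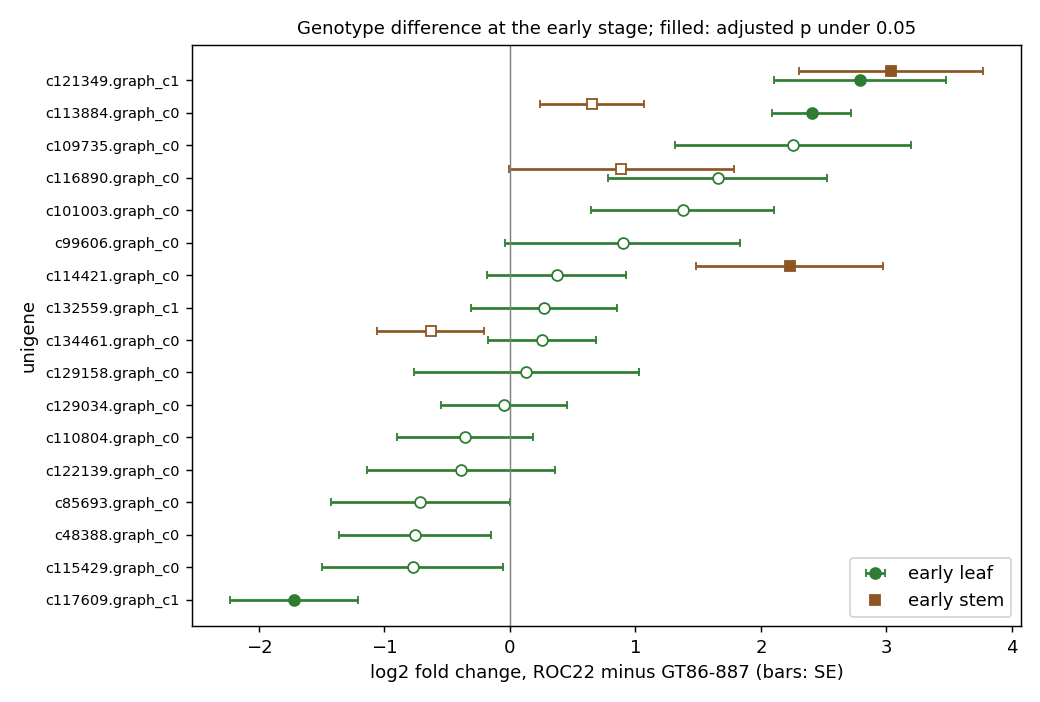
Difference between ROC22 and the second genotype at the early stage on the log2 scale, with SE, for the 17 unigenes in leaf (circles) and the 5 tested in stem (squares), filled where the adjusted p from edgeR is under 0.05. Filled circles are c121349.graph_c1 and c113884.graph_c0 on the right and c117609.graph_c1 on the left, and filled squares are c121349.graph_c1 and c114421.graph_c0.

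Whether the genotype difference at the early stage differed between leaf and stem was tested in 1 fit over all 36 libraries and 42119 unigenes, added after the values had been seen. It passed for 1 of the 17, c113884.graph_c0, where 10% of all tested unigenes passed in either direction. The leaf difference of c113884.graph_c0 exceeded its stem difference by 1.70 ± 0.54 on the log2 scale in edgeR, with adjusted p = 0.0414. The call was lost without ROC22 early leaf library 1 or 3, ROC22 early stem library 1 or 3, early leaf library 1 or 3 of the second genotype, or early stem library 2 or 3 of the second genotype, with adjusted p between 0.0533 and 0.0987. For c134461.graph_c0, c114421.graph_c0 and c121349.graph_c1 edgeR gave 0.83 ± 0.64 (adjusted p = 0.487), -1.93 ± 0.95 (adjusted p = 0.219) and -0.31 ± 1.02 (adjusted p = 0.960).

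Identifiers that agree before the point were taken to mark relatives of the same assembly component, though no label or header explains the naming. Of the 17, 4 had such relatives in the series, 7 in all. The relative of c121349.graph_c1, c121349.graph_c0, was also highest in early leaf, at mean levels of 91.1 CPM early, 12.3 middle and 12.4 late in ROC22 and 57.7, 21.7 and 4.34 CPM in the second genotype. The relative of c115429.graph_c0, c115429.graph_c1, held 15.9, 3.51 and 2.47 CPM in ROC22 leaf and 24.0, 2.04 and 1.63 CPM in leaf of the second genotype, so both were highest early.

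The remaining relatives were unlike each other. Of those of c117609.graph_c1, c117609.graph_c4 and c117609.graph_c0 were at 0 in ROC22 leaf and, like it, highest early in leaf of the second genotype, at 0.815, 0.159 and 0.175 CPM and at 0.325, 0.0991 and 0.207 CPM, and c117609.graph_c2 was at or below 0.0645 CPM in every leaf group. In ROC22 leaf c117609.graph_c5 held 35.5 CPM early, 1.35 in the middle and 14.1 late, and in leaf of the second genotype 4.15, 2.23 and 6.24 CPM, so that in early and late leaf, though not in middle leaf, its mean was the higher in ROC22 where that of c117609.graph_c1 was the higher in the second genotype. The relative of c132559.graph_c1, c132559.graph_c0, was lowest early, at 5.13, 15.2 and 12.5 CPM in ROC22 and 5.69, 11.8 and 7.96 CPM in the second genotype. No label or header says how reads were divided among such relatives, and its part in these values was not tested.

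A degradome library sequences the uncapped 5′ ends left when RNA is cut, for example where a microRNA directs cleavage of its target. The authors' deposited degradome table lists 871 pairs of a microRNA and a target, with 752 target unigenes, and 0 of the 17 are among them. The whole series holds 100182 unigenes, so listed targets are rare in any set of this size. Nothing is read from the 0.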

How the data were processed

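Per the labels' protocols, RNA was extracted with Trizol and sequenced by standard Illumina methods. No label or header names an assembler, aligner or counter. The authors deposited a whole-number count and an FPKM value per unigene and library, per the file headers. The members and lists were chosen with earlier results of these data known. CPM was computed as count over column sum. The test on counts was that of edgeR 4.0.16, run in R 4.3.3 (TMM scaling, filterByExpr, 1 coefficient per group, quasi-likelihood test, Benjamini-Hochberg adjustment over all tested unigenes, threshold 0.05), within leaf or within stem, and SE was taken as the log2 change over the square root of F. The fit was tested on simulated data. Alternatives were DESeq2 1.42.0, no filter, a replicate block and leaving out each library. Other tables were made with Python 3.11.15 and pandas 2.3.3.

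Named unigenes are the 2 with the highest mean early leaf CPM and, for each comparison, the unigene that rose most and the one that fell most, out of those that passed, had groups without overlap and lay above the median level of the members tested; any other was chosen after its values were seen. Depth was 17970015 to 24929466 counts, and floors cover counting error only, while the SE of edgeR includes variation among libraries. A further 64 columns of per-sample values, in the small RNA and degradome tables, were not used. The planned comparison of microRNAs was not made, since no member is listed as a target.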

Additional observations from a re-analysis of the deposited data

Results flagged for a closer look

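The genotype difference of c113884.graph_c0 at the early stage was larger in leaf than in stem, by 1.70 ± 0.54 on the log2 scale in a test of the difference itself (edgeR, adjusted p = 0.0414). In leaf all 3 ROC22 libraries, at 60.7 to 83.2 CPM, were above the libraries of the second genotype, at 12.7 to 18.3 CPM, while in stem the ranges overlapped, at 70.6 to 133 CPM and 58.9 to 84.2 CPM. The value stayed between 1.54 and 2.0 when each of the 12 early libraries was left out, and the call was lost in 8 of those 12 fits, with the adjusted p over all alternatives between 5.39e-06 and 0.0987. The cause was not tested.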

How the results depend on the processing

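The number of unigenes chosen depends on the limits. Of the 17, the authors' FPKM in place of CPM chose 14 in a set of 26, and TMM scaling 16 in a set of 16. A fold of 4 gave 99 unigenes, a fold of 16 gave 3, an early mean of 2 CPM gave 37, one of 10 CPM gave 7, and the limits in every library gave 2. Leaving out each leaf library in turn gave 9 to 68.

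The numbers of calls among the 17 also moved, by fewer unigenes. In the second genotype from early to middle stem, the number lower was 4 without the filter on low counts and 2 to 4 without each library. In early stem the number lower in ROC22 was 0 in the main fit, 1 without the filter and 1 by DESeq2. It was also 1 without each stem library in turn, except early stem library 2 or 3 of the second genotype. Without either of those, the filter kept c117609.graph_c1 out and the number stayed 0. Where the number was 1, the unigene was c117609.graph_c1. The number higher was 1 to 4 without each library. In early leaf, 6 were higher in ROC22 without the filter, in a fit that gave far smaller adjusted p for the same unigenes. Without each library the ranges were 1 to 3 higher and 0 to 1 lower. Direction was followed for values that passed or came near passing in the main fit. It was also followed for c134461.graph_c0, c113884.graph_c0 and c114421.graph_c0 in stem, and for 1 unigene in each test added later. Other values, among them those of c134461.graph_c0 and c114421.graph_c0 in early leaf, were not followed. Of the values followed, none changed direction under the alternatives run, in which 14 calls were lost and 9 gained out of 523. The cause was not tested.

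Libraries share only a number between groups: deviations of same-numbered libraries correlated at 0.172, -0.172 and 0.139 between the genotypes in early leaf, and no stem comparison had all 3 above 0.1. With the replicate block in early leaf, 4 were higher in ROC22, with c109735.graph_c0 (adjusted p = 0.00256) and c116890.graph_c0 (adjusted p = 0.0481) added. The filter kept c117609.graph_c1 out of the main stem fit. Without the filter, edgeR gave a fall from early to middle stem in the second genotype, with adjusted p = 0.0110. That unfiltered value is not taken as support.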
